A study of Mus musculus with 2 samples.

Results

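The genes described here encode collagens, matrix glycoproteins and proteoglycans, and the proteins that fold, trim and cross-link collagen. Their list holds 48 genes, and 45 of them had at least 1 probe set annotated with their symbol alone, out of 18093 genes with a value. Fbn1, Efemp2 and Loxl2 were not analysed here. The 45 genes had 103 probe sets. The list was picked because matrix genes led the higher side of the only contrast in the study, so all values below describe that contrast and none of them tests it.

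RNA came from peritoneal macrophages of C57BL/6J mice, collected 3 days after thioglycolate, which inflames the peritoneal cavity and recruits these cells. One array was hybridised with cells given LPS+CPN and the other with cells given LPS+CPN+GGOH, so LPS (lipopolysaccharide, a bacterial Toll-like receptor ligand) and CPN, named in the labels by this abbreviation alone, were common to both. GGOH is geranylgeraniol, an isoprenoid alcohol that cells can use to attach geranylgeranyl lipids to small GTPases. The sources used here give no dose, no treatment time and no number of animals. With 1 array per condition there was no replicate and no test, and a difference between the arrays cannot be told apart from a difference between these particular cultures.

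The extracellular matrix is a mesh of secreted proteins. Fibrillar collagens give it tensile strength, a sheet of type IV collagen, laminin, nidogen and perlecan forms the basement membrane, and elastic fibres give recoil. Collagen chains are hydroxylated and folded into a helix in the endoplasmic reticulum with the help of the chaperone encoded by Serpinh1, are trimmed outside the cell and are then cross-linked by lysyl oxidases. Fibroblasts, mesothelial cells and smooth muscle cells are the textbook sources of most of these proteins in the peritoneal wall. Macrophages make a smaller range of them, fibronectin and thrombospondin among them.

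Signals are linear intensities, and a signal at or under 59.9, the median of all non-control probe sets on both arrays, was treated as not above the floor. Where a gene had several probe sets, the brightest by mean log2 signal was used. The log2 ratio is positive where LPS+CPN+GGOH gave more signal, and where LPS+CPN gave a signal under the floor the fold is a lower bound. Probe sets of the same gene, where above the floor on both arrays, differed with a pooled SD of 0.45 in log2 ratio (4166 genes). This SD is used here as a measure of the spread within a gene. It does not measure variation between arrays, cultures or animals, and bounds did not enter it.

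Most matrix genes gave more signal on the LPS+CPN+GGOH array. Of the 45 genes, 28 were at least 2-fold higher there, 8 differed by under 2-fold, 5 had only a bound under 2-fold, none was at least 2-fold lower and 4 were not above the floor on either array. Over all 11575 genes above the floor on an array, 5.73% passed 2-fold on the higher side and 1.65% on the lower side. At least 4-fold, 23 matrix genes were higher, against 1.76% of all genes. Because 21 of the matrix genes passed the floor with LPS+CPN+GGOH alone (8.96% of all genes did), they could only be higher. Of these 21, 16 had a bound of at least 2-fold, against 337 of 1037 over all genes. None of the matrix genes was above the floor with LPS+CPN alone (5.59% of all genes). The 20 that passed the floor with LPS+CPN had no such constraint: 12 were at least 2-fold higher, 8 were under 2-fold and none was lower by that much, with 3.09% of the 10538 genes above that floor higher and 1.81% lower. The median log2 ratio, bounds included, was 2.48 over the 41 genes above the floor on an array and -0.01 over all such genes. Without bounds it was 2.05 over those 20, and -0.03 over all genes above the floor on both arrays. Ranked among the 9891 genes above the floor on both arrays, Col1a2, Sparc, Fbln2, Bgn and Fn1 were among the 10 with the highest ratios.

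**Figure D1:**
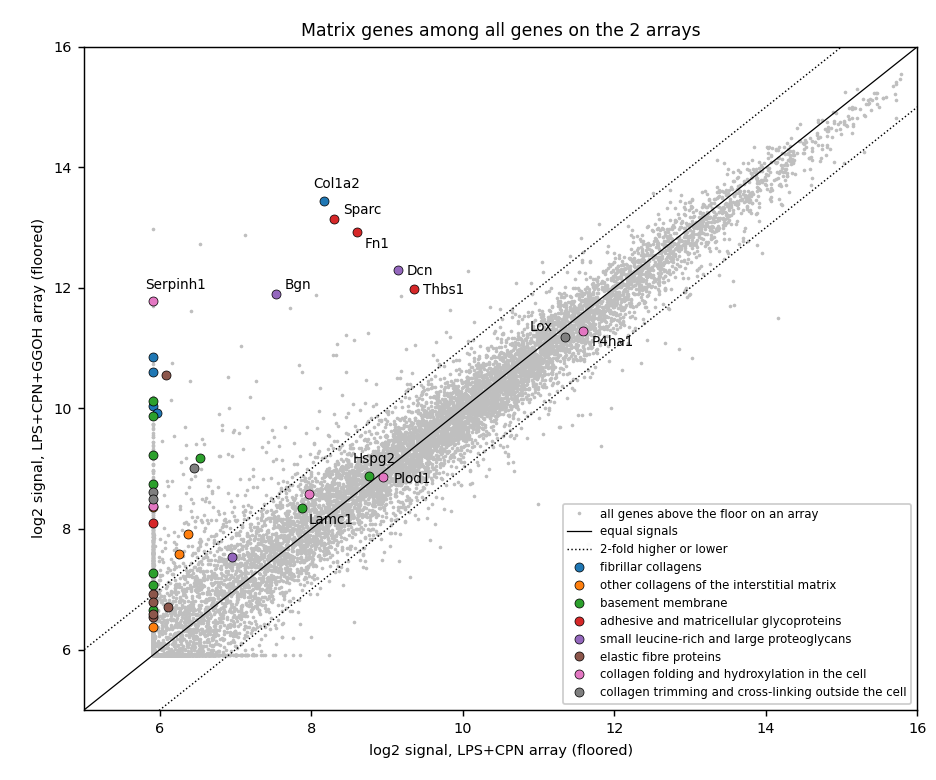
Each point is a gene, with its log2 signal for LPS+CPN on the x axis and for LPS+CPN+GGOH on the y axis, both set to the floor where lower; grey points are all genes and coloured points the matrix genes by role. Col1a2, Sparc, Fn1, Bgn, Dcn and Thbs1 stand above the dotted 2-fold line, the column of points at the left edge are genes at the floor with LPS+CPN, and Lox, P4ha1, Plod1, Hspg2 and Lamc1 lie close to the line of equal signals.

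Many markers of cells other than macrophages were also higher on the LPS+CPN+GGOH array. Of 12 mesothelial markers, 11 were above the floor on an array and all 11 were at least 2-fold higher, against 5.73% of all genes. Of these 11, 10 were at the floor with LPS+CPN and could only be higher. Over all genes, 1037 were above the floor with LPS+CPN+GGOH alone, and 337 of these had a bound of at least 2-fold. The mesothelial list had a summed signal of 311 with LPS+CPN and 3235 with LPS+CPN+GGOH, and Muc16 was below the floor on both. The transcription factor gene Wt1 was at least 9.02-fold higher, the keratin gene Krt8 7.70-fold and the uroplakin gene Upk1b at least 5.49-fold. Of 16 fibroblast markers that are not matrix genes, 13 were above the floor and 7 at least 2-fold higher (53.8%, against 5.73% of all genes). Their summed signals were 2325 and 6651. Of these 13, 10 were at the floor with LPS+CPN and could only be higher. Among those 10, 6 were at least 2-fold higher, against 337 of 1037 over all genes. The 2 fibroblast markers above the floor on both arrays had opposite signs. Fstl1 was 2.27-fold higher and Tcf21, a transcription factor gene, had a log2 ratio of -0.93. Pdgfra, a growth factor receptor of fibroblasts, was at least 13.7-fold higher, and the collagen receptor gene Ddr2 at least 6.39-fold, whereas Twist2, Prrx2 and Pi16 were below the floor on both arrays. Among 10 smooth muscle and pericyte markers 4 of the 5 above the floor were at least 2-fold higher (80%, against 5.73% of all genes), 2 of them by a bound. They included Acta2 (14.2-fold), Tagln (at least 18.9-fold) and Des (at least 15.9-fold). The list had summed signals of 532 and 6117, and Myh11, Cnn1, Rgs5, Lmod1 and Actg2 were below the floor.

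The macrophage label held on both arrays: 17 of 18 macrophage markers were above the floor on both, with summed signals of 253421 and 224653, a median log2 ratio of -0.21, and signals of 38747 and 32153 for the lysozyme gene Lyz2. Itgam, an integrin chain, was the 1 macrophage marker past 2-fold, with signals of 312 and 646 (2.07-fold higher). Cd163 was below the floor. Endothelial markers were mostly below it (8 of 12, Pecam1 and Cdh5 included); Esam was 3.22-fold higher and Vwf 2.10-fold lower. Neutrophil markers were above the floor for 3 of 7 genes and adipocyte markers for 1 of 4, none of them past 2-fold. The 3 neutrophil log2 ratios, bounds included, ran from -0.95 to -0.18. The lowest was that of S100a8, the brightest of them, with signals of 4282 and 2216. No B cell, T cell, mast cell and eosinophil or unrelated lineage marker was above the floor on either array. The arrays also differed in RNA quality, the 3' to 5' signal ratio being 2.44 for Actb and 1.98 for Gapdh with LPS+CPN and 1.24 and 0.956 with LPS+CPN+GGOH. The part of the marker genes or of RNA quality in the matrix gene values was not tested. In RNA from whole cultures, fewer cells of a type and less RNA per cell cannot be told apart.

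Promoter sequence was set beside these values. RefSeq (GRCm38.p6) windows were found for 29 of the 45 genes, 36 windows in all, and the 250 bases before each start were searched on both strands. Shares are given for these windows, for the 23 windows of genes at least 2-fold higher, and for 21262 windows of protein-coding genes. The GC box GGGCGG was found in 24 of the 36 windows (66.7%), in 69.6% of those of higher genes and in 42.6% of protein-coding windows (32.7% of all 32851). The windows of the matrix genes were 59.2% G or C and those of protein-coding genes 55.5%. CCAAT was found in 30.6%, 34.8% and 35.4% in the same order, and TATAAA in 6 of the 36 windows, 3 of the 23 and 11.6% of protein-coding windows. The TEAD factor motif GGAATG was in 13.9%, 21.7% and 11.7%. All 5 of its matrix windows (Col18a1, Col3a1, Col6a2, Mfap2 and Nid1) were of higher genes, as were 23 of the 36 matrix windows. The AP-1 motif TGANTCA was in 2.78%, 4.35% and 6.13%. The CArG box, which serum response factor binds, was in none of the matrix windows and in 1.39% of protein-coding windows. None of these shares was tested. The 250 bases before the start are printed for 5 genes with high folds. They are 2 fibrillar collagen chains, the glycoprotein Sparc, the proteoglycan Bgn and the collagen chaperone Serpinh1. These are not the 5 highest folds, since Col5a2 (at least 30.8-fold) and Fbln2 (22.2-fold) exceeded Bgn (20.7-fold). The folds of Col3a1 and Serpinh1 are bounds. Capitals mark a match to any of the motifs on either strand.
Col1a2: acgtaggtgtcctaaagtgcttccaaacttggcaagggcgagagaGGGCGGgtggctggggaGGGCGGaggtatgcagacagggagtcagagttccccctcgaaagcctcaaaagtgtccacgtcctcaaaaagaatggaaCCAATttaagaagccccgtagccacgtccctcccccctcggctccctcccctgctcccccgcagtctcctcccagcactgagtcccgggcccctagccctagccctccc
Col3a1: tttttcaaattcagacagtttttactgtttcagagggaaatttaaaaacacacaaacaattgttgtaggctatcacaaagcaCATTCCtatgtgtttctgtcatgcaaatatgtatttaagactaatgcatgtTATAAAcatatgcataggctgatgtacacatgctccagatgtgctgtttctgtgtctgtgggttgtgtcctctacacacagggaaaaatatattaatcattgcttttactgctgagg
Sparc: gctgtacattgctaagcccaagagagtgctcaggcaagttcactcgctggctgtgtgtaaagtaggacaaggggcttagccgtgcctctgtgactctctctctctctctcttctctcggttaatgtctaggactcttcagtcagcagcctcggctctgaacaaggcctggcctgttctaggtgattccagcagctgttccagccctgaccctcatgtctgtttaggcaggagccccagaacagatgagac
Bgn: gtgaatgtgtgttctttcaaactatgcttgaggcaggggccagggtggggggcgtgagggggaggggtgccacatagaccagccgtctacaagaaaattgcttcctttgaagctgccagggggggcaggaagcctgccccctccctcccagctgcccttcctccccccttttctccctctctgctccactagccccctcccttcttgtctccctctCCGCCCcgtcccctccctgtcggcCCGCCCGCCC
Serpinh1: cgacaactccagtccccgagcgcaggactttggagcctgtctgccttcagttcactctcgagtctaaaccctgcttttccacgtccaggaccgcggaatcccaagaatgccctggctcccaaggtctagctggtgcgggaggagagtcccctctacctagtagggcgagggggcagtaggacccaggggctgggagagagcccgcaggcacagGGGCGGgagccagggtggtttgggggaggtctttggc
The Col1a2 window (chr6:4505368-4505617, plus strand) held a CCAAT box 109 to 105 bases before the start and GC boxes beginning 205 and 188 bases before it. The Col3a1 window (chr1:45311288-45311537, plus strand) held no GC box; it had TATAAA 117 to 112 bases before the start and GGAATG, on the other strand, 168 to 163 bases before it. In the Bgn window (chrX:73483351-73483600, plus strand) 3 GC boxes were found on the other strand, 2 of which overlap next to the start. Serpinh1 (chr7:99353240-99353489, minus strand) had 1 GC box 37 to 32 bases before the start, and the Sparc window (chr11:55420081-55420330, minus strand) held none of these letters. A match is a stretch of letters and does not show binding, and no match says only that these letters are not in this window.

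The fibrillar collagens, which form the tensile fibres of connective tissue, were all far higher with LPS+CPN+GGOH. Col1a2, a chain of type I collagen, gave a signal of 287 with LPS+CPN and 11165 with LPS+CPN+GGOH, a 38.9-fold difference. Its partner chain Col1a1 gave 3.79, far under the floor, and 1053, a difference of at least 17.6-fold. Col3a1, the chain of type III collagen, gave 55.0, just under the floor, and 1551, at least 25.9-fold more. Type V collagen, which starts fibrils, followed the same direction: Col5a2 went from 28.5 to 1845 (at least 30.8-fold) and Col5a1 from 62.2, barely above the floor, to 972 (15.6-fold). In this group 5 of 5 genes were at least 4-fold higher, 3 of them by a bound, against 1.76% of all genes. The median log2 ratio, bounds included, was 4.69. Only Col1a2 had an LPS+CPN signal clear of the floor, so for the other 4 the size of the fold depends on where the floor is set. Not every probe set gave a fold of that size. The 3 probe sets of Col1a2 gave log2 ratios from 0.88 to 5.83, the 2 of Col3a1 from 0.86 to 4.69, and the 3 of Col5a1 from 0.41 to 3.97.

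Other collagens of the interstitial matrix differed less. Type VI collagen forms beaded filaments around cells from 3 chains. By the probe sets used, Col6a2 gave 19.9 and 329.7 (at least 5.50-fold higher), Col6a1 83.0 and 241 (2.91-fold) and Col6a3 76.0 and 191 (2.52-fold). The _x_at probe set of Col6a2, above the floor on both arrays, gave 116 and 375, a smaller fold of 3.22. All 3 chains were thus higher, and the folds of Col6a1 and Col6a3 were smaller than that of any fibrillar chain. Col6a3 came to a log2 ratio of 0.89, under 2-fold, when a pseudocount replaced the floor. Col12a1, which decorates fibrils, gave 18.2 and 83.0, so that only a bound of 1.39-fold could be set. Col8a1, a short network-forming collagen, was below the floor on both arrays, with 6.86 and 49.6.

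**Figure D2:**
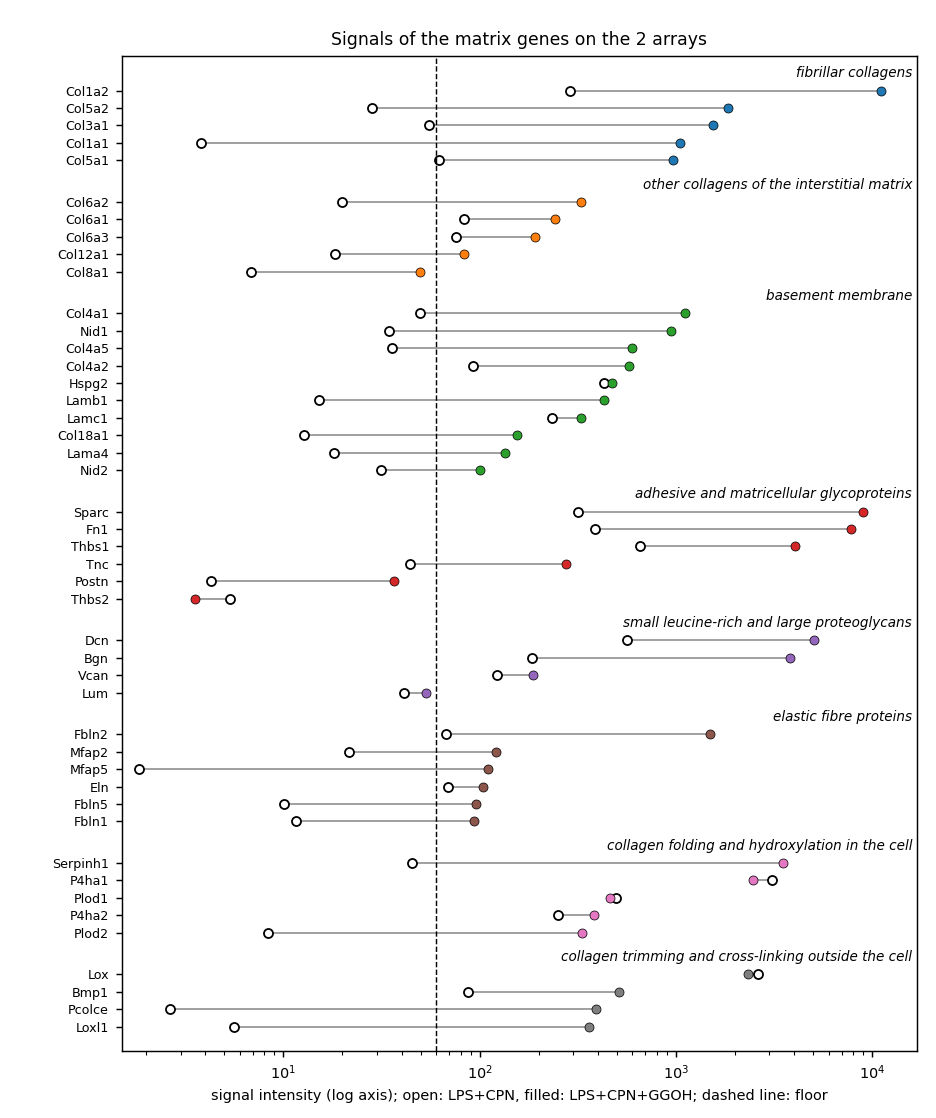
Signal intensity of each of the 45 matrix genes (log axis) with LPS+CPN (open) and LPS+CPN+GGOH (filled), joined by a line, grouped by role; the dashed line is the floor of 59.9. Most open points lie left of the dashed line, while Lox, P4ha1, Plod1 and Hspg2 have both points close together well to the right of it.

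Basement membrane genes were split. Col4a1 and Col4a2, the chains of the most widespread type IV collagen, gave 49.9 and 1113 (at least 18.6-fold higher) and 92.3 and 579.7 (6.28-fold). These genes lie head to head, with RefSeq starts 21 bases apart on opposite strands. Col4a5, a chain of more restricted basement membranes, went from 35.7 to 599.8 (at least 10.01-fold). Nid1, which links laminin to collagen IV, gave 34.4 and 940.2 (at least 15.7-fold higher), and its relative Nid2 31.6 and 100.4 (at least 1.68-fold). By the probe sets used, the 3 type IV chains and Nid1 were therefore all at least 4-fold higher. The other Col4a5 probe set, above the floor on both arrays, gave 79.1 and 206 (2.60-fold). A weaker Nid1 probe set gave a bound of 2.42-fold.

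The laminin chains, which assemble as trimers of an alpha, a beta and a gamma chain, had unlike values. The beta chain Lamb1 gave 15.1 and 429 (at least 7.16-fold higher) and the alpha chain Lama4 18.0 and 134 (at least 2.24-fold). The gamma chain Lamc1 was already above the floor with LPS+CPN at 234 and gave 327 with LPS+CPN+GGOH, a log2 ratio of 0.48 that is close to the SD between probe sets. Col18a1, whose end fragment is endostatin, gave 12.8 and 155 (at least 2.59-fold higher). Hspg2, the perlecan core protein, gave 432 and 472, a log2 ratio of 0.13 that turned to -0.04 when each array was divided by its median and to -0.01 with quantile normalization. Its second probe set, under the floor with LPS+CPN, was at least 3.14-fold higher, so the probe sets of Hspg2 disagree. In all 7 of 10 basement membrane genes were at least 2-fold higher, 6 of them by a bound, against 5.73% of all genes. The median log2 ratio, bounds included, was 2.01. The 3 above the floor on both arrays (Col4a2, Lamc1 and Hspg2) had a median of 0.48.

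Adhesive and matricellular glycoproteins, which tie cells to the matrix or alter that contact, included genes with a signal on both arrays. Fibronectin (Fn1) gave 390 with LPS+CPN and 7799 with LPS+CPN+GGOH, 20.02-fold more. Sparc, a collagen-binding glycoprotein, gave 316 and 9006 (28.5-fold). Thbs1, thrombospondin-1, gave 655 and 4045 (6.17-fold), and its second probe set had a log2 ratio of 2.34. For these 3 genes the LPS+CPN signal was at least 5 times the floor, so their folds do not rest on it. Of the 3 Sparc probe sets the second gave a log2 ratio of 6.03 and the last, with signals of 69.2 and 47.4 near the floor, -0.21. Tenascin C (Tnc), a protein of remodelling tissue, gave 44.2 and 276, at least 4.60-fold more. Thbs2 and periostin (Postn) were below the floor on both arrays, with 36.7 for Postn as the higher of its signals. The 4 genes above the floor were all at least 4-fold higher, 1 of them by a bound, against 1.76% of all genes. Their median log2 ratio, bounds included, was 3.47.

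Among proteoglycans, the small leucine-rich proteins Bgn and Dcn, which bind collagen fibrils, were far higher. Bgn (biglycan) gave 184 and 3808, 20.7-fold more, and all 3 of its probe sets had log2 ratios between 4.37 and 5.23. Dcn (decorin) gave 565 and 5043, 8.93-fold more. A second Dcn probe set, with 4.22 and 71.6, gave a bound of 0.26 in log2 ratio, and the median over both was 1.71. Lum (lumican), of the same family, was below the floor with 41.0 and 53.4. It lies next to Dcn on the chromosome. Vcan, a large hyaluronan-binding proteoglycan, gave 123 and 186, a log2 ratio of 0.60 by the probe set used. Of its 3 probe sets above the floor, 2 were at least 2-fold higher (1.48 and a bound of 1.02). The median over the 3 was 1.02, so the call for Vcan depends on the probe set.

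Elastic fibre genes had mostly low signals. Fbln2 was the exception, with 67.5 and 1501 (22.2-fold higher), although its LPS+CPN signal lay just above the floor. Mfap2, a microfibril protein, gave 21.7 and 122, at least 2.03-fold more; its log2 ratio of 1.02 was under 2-fold in 3 other scalings, at 0.94 when each array was divided by its median, 0.88 with quantile normalization and 0.99 with lowess. The other genes had LPS+CPN+GGOH signals of 111 (Mfap5), 104 (Eln), 96.1 (Fbln5) and 93.2 (Fbln1), close to the floor. Elastin itself (Eln), the rubber-like core, gave 69.2 with LPS+CPN and a log2 ratio of 0.59. For Mfap5, Fbln5 and Fbln1 only bounds of 1.85-fold, 1.60-fold and 1.56-fold could be given, so a larger difference could not be measured. In this group 2 of 6 genes were at least 2-fold higher, 1 of them by a bound, against 5.73% of all genes. The median log2 ratio, bounds included, was 0.78.

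Genes for folding and hydroxylating collagen inside the cell fell into distinct patterns. Serpinh1, the collagen-specific chaperone, gave 45.5 and 3513, at least 58.6-fold more, and the gene's _x_at probe set, with signals of 60.9 and 3859, gave 63.4-fold. Plod2, the lysyl hydroxylase of the collagen ends, gave 8.39 and 335 (at least 5.58-fold higher). Plod1, which hydroxylates lysines of the helix, gave 494 and 463, a log2 ratio of -0.09 that became 0.12 under scaling to equal macrophage markers. The lysyl hydroxylases Plod1 and Plod2 therefore had unlike values, the first with a signal on both arrays and the second with LPS+CPN+GGOH alone. A weaker Plod1 probe set gave 150.5 and 55.3, at least 2.51-fold lower, the only one of the 103 probe sets lower by that much. Of the 103, only the 31 above the floor with LPS+CPN could be lower at all. The prolyl hydroxylase subunits, which the helix needs to be stable, differed by under 2-fold. P4ha1 gave 3076 and 2486 (log2 ratio -0.31) and P4ha2 251 and 384 (0.61). A second P4ha1 probe set gave 209 and 529.8, a log2 ratio of 1.34, so the direction for P4ha1 depends on the probe set.

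Outside the cell, procollagen is trimmed by the protease encoded by Bmp1 with the help of the enhancer protein Pcolce. Bmp1 gave 87.5 and 515 (5.88-fold higher), with a weaker probe set at 0.08, and Pcolce gave 2.65 and 390.15 (at least 6.51-fold). By the probe sets used, both genes were thus at least 4-fold higher, while the other Pcolce probe set gave a bound of 3.72-fold. The lysyl oxidases, which start cross-links, had unlike values. Loxl1 gave 5.61 and 360 (at least 6.00-fold higher). Lox gave 2614 and 2338, a log2 ratio of -0.16 that became 0.05 under scaling to equal macrophage markers, and its other probe set above the floor gave 1007 and 1162 (0.21). Lox was thus well above the floor with LPS+CPN and its difference was smaller than the spread between probe sets.

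Probe sets of a gene mostly shared a direction. Of 27 genes with more than 1 probe set above the floor on an array, 24 had the same sign in all of them; Sparc, P4ha1 and Lox did not. Of the 20 such genes that were at least 2-fold higher, 13 were so in every probe set. Taking the median over probe sets lowered the log2 ratio of Col3a1 to 2.78, of Col5a1 to 2.45, of Col5a2 to 3.49, of Col4a1 to 3.60, of Col4a5 to 2.35, of Lamb1 to 1.84, of Nid1 to 2.62, of Fn1 to 3.59 and of Bmp1 to 1.32. It gave 0.89 for Hspg2, 0.52 for P4ha1 and -0.71 for Plod1. All 28 genes at least 2-fold higher kept that call, and Vcan (1.02) joined them. A probe set at the floor with LPS+CPN can only be higher, so part of this agreement is built in. By probe set, 31 of the 103 passed the floor with LPS+CPN and 71 with LPS+CPN+GGOH. For scale, the floor is the 50th percentile of the non-control signals of both arrays together. The median over all probe sets was 56.7 with LPS+CPN and 63.7 with LPS+CPN+GGOH.

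**Figure D3:**
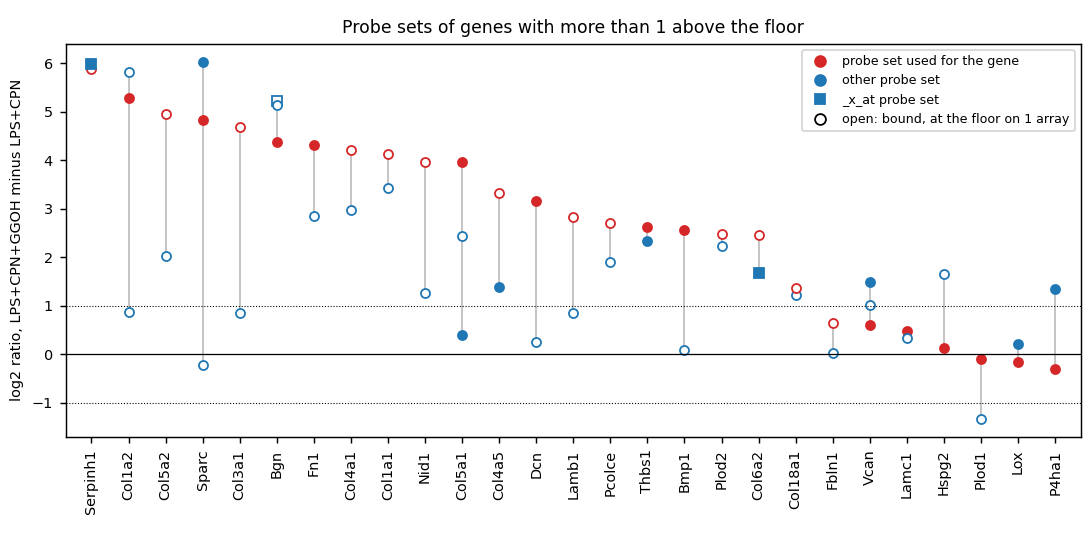
Log2 ratio of each probe set above the floor on an array, for the 27 matrix genes with more than 1; red is the probe set used for the gene, squares are _x_at probe sets, open symbols are bounds and dotted lines mark 2-fold. Bgn, Fn1, Col1a1, Thbs1 and Plod2 have all their points above the upper dotted line, while Sparc, P4ha1 and Lox have points on both sides of 0.

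Some matrix genes are neighbours on the chromosome, and neighbours did not always have like values. Apart from Col4a1 and Col4a2, the list holds the adjacent genes Col3a1 and Col5a2, both at least 25-fold higher, Col6a2 and Col6a1, both higher, and Dcn and Lum, of which only Dcn was above the floor. This is a description of 4 gene pairs.

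Genes of the same pathway outside the list were also counted, bounds included. Of 29 further collagen chains 12 were above the floor on an array, of which 1 was higher (8.33%, against 5.73% of all genes). It was Col16a1, a fibril-associated collagen, with 82.5 and 271 (3.29-fold). Col9a1, of cartilage, was at least 2.36-fold lower (141 and 36.2), and it was the 1 chain of the 12 lower by 2-fold, against 1.65% of all genes. The other 10 did not pass 2-fold. Over the 12 the median log2 ratio was 0.00. Of 52 further glycoproteins and proteoglycans 18 were above the floor, 3 were higher (16.7%, against 5.73% of all genes) and none was 2-fold lower, with a median of 0.01. All 3 were higher by a bound, out of 6 above the floor with LPS+CPN+GGOH alone, against 337 of 1037 over all genes. The higher ones were Ltbp2 (at least 10.7-fold) and Ltbp1 (at least 3.47-fold), of the family that binds latent TGF-beta, and Efemp1, a fibulin (at least 4.60-fold). Emilin2, with 3573 and 3167, and Ecm1, with 2934 and 3031, had signals on both arrays and log2 ratios of -0.17 and 0.05.

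Of 27 further folding, secretion and cross-linking genes above the floor, 5 were at least 2-fold higher (18.5%, against 5.73% of all genes; 3 by a bound) and none was lower by that much, and the median log2 ratio was 0.18. Those higher were the prolyl isomerases Fkbp9 (181 and 735, 4.05-fold), Fkbp7 (97.8 and 367, 3.76-fold) and Fkbp14 (at least 2.14-fold), and the prolyl 3-hydroxylase family genes P3h4 (at least 4.90-fold) and P3h3 (at least 2.61-fold). General chaperones of the endoplasmic reticulum did not pass 2-fold: Pdia3 had a log2 ratio of 0.66, Hsp90b1 0.44, Calr 0.14, Canx 0.12 and Hspa5 -0.22. P4hb, the shared partner of the prolyl hydroxylase subunits, gave 6649 and 10318, a log2 ratio of 0.63. Collagen galactosyltransferase Colgalt1 gave 4582 and 4651.

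**Figure D4:**
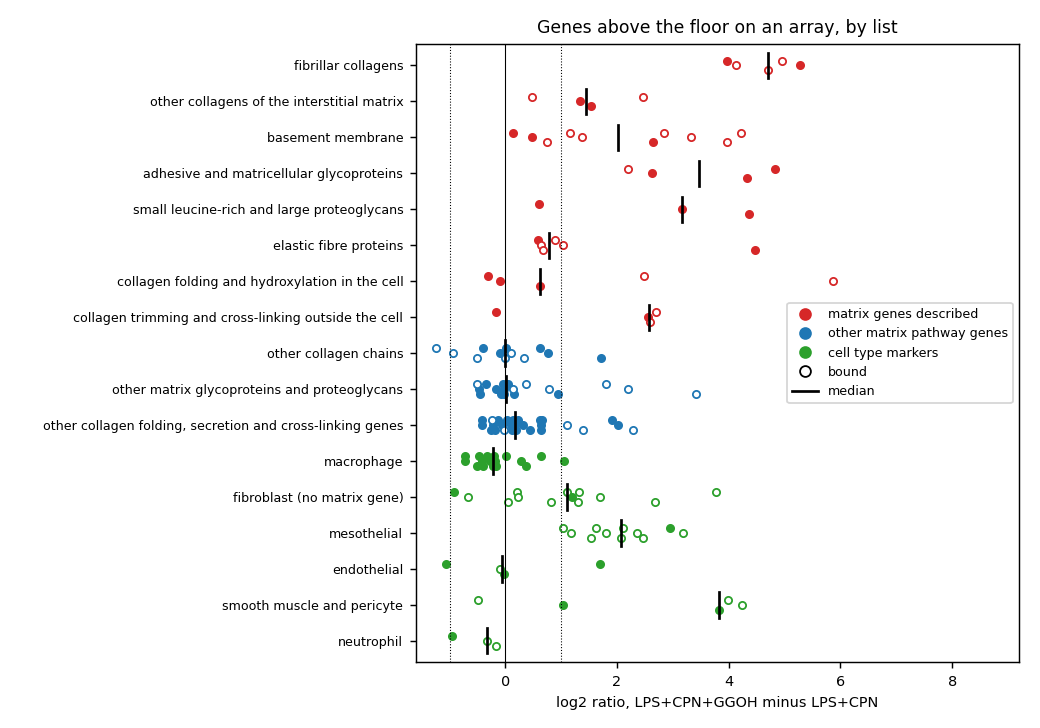
Log2 ratio (LPS+CPN+GGOH minus LPS+CPN) of each gene above the floor on an array, by list, with matrix genes by role in red, other pathway genes in blue and cell type markers in green; open points are bounds, black bars medians and dotted lines 2-fold. Fibrillar collagens lie between 3.97 and 5.28, mesothelial markers between 1.02 and 3.17, and macrophage markers between -0.73 and 1.05.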

How the data were processed

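Biotin-labelled cRNA of 2 samples, 1 per condition, was hybridised to 1 array each. The deposited signal intensity values, 1 per probe set on a linear scale, were made with MAS5 by the authors, per the submitters' processing notes; the sources used here give no version. With the outermost values trimmed to leave the central 96% of 45101 probe sets, both arrays had a mean of 499.8, so the values had been scaled, and the arrays' medians were 56.7 and 63.7. Probe sets were named from the platform annotation: 34945 had 1 symbol, 932 several and 9160 none. Control probe sets (64) and _x_at probe sets were left out of gene values, and the floor was the 50th percentile of all non-control signals. A gene was counted as higher or lower at 2-fold. The number of arrays limits the precision. The steps were tested on simulated data. Differences were put only into genes far above the floor, so calls that rest on a bound were not covered. Python 3.11.15, pandas 2.3.3 and statsmodels 0.14.6 were used. All matrix genes may be named; from other pathway lists those past 2-fold were named, up to 6 with the largest ratios, and from marker lists up to 3 of the brightest. Further genes, chosen after seeing their values, are named where a contrast or a count needs them. The matrix genes, lists and settings were chosen with earlier results of these data known. Alternatives were 4 scalings, 2 other floors, a pseudocount, the median over probe sets and _x_at probe sets kept.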

Additional observations from a re-analysis of the deposited data

How the results depend on the processing

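Of 351 values of single matrix genes under 9 alternatives, 61 moved by over 1 SD between probe sets and none that was at least 2-fold changed sign. At the 75th percentile (a signal of 376) 14 matrix genes were at least 2-fold higher. Of the 28, 9 were no longer above it on either array and 5 fell under 2-fold (Bmp1, Col4a2, Col4a5, Lamb1 and Pcolce). The median log2 ratio was then 1.43 and the median LPS+CPN+GGOH signal was 1307, against 463. At the 25th percentile (14.3) 33 were higher and 1 was lower (Thbs2). The median log2 ratio was 1.99 with a pseudocount and 1.84 with the median over probe sets, where the median signal was 329.7. The 4 scalings left 27 or 28 genes higher and none lower. All 9 settings gave at least 2-fold for 14 genes (Bgn, Col1a1, Col1a2, Col3a1, Col4a1, Col5a1, Col5a2, Dcn, Fbln2, Fn1, Nid1, Serpinh1, Sparc and Thbs1).

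Over all genes, 663 were higher and 191 lower, 77.6% of the calls being higher. This was 62.6% (555 and 332) when each array was divided by its median, 62.9% (526 and 310) with quantile normalization and 91.1% (928 and 91) under equal macrophage markers. It was 59.2% (1689 and 1165) and 59.4% (129 and 88) at the lower and higher floor. The median of all genes was -0.17 with division by the medians and 0.19 under equal macrophage markers. No paired analysis was possible because each condition had 1 array.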
